A study of Mus musculus with 4 samples.

Results

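The cells described here are the endothelial cells of the mouse ventromedial prefrontal cortex (vmPFC), the cells that line its blood vessels. They were picked from 3 unsorted single-cell RNA libraries by their own transcripts. A cell was taken when it was absent from the authors' table of annotated excitatory neurons, had 500 to 8000 detected genes, 1000 to 60000 transcript molecules (unique molecular identifiers, UMIs) and under 20% mitochondrial UMIs, and held at least 6 UMIs of Cldn5, Flt1, Slco1a4 and Pecam1 together. It was left out when it held more than 2 UMIs of the pericyte genes Kcnj8, Abcc9 and Higd1b, of the microglial genes Cx3cr1 and P2ry12, of the neuronal genes Slc17a7, Gad1 and Gad2, or of the oligodendrocyte genes Mog and Mag. The rule found 1578 cells, of 19472 filtered cells in the unsorted libraries and 11707 of these outside the neuron table. The libraries gave 600, 500 and 478 of them.

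The study injected 5 barcoded retrograde viruses (rAAV2-retro carrying EGFP) on one side of the brain, each into another target of the vmPFC, namely the agranular insula, dorsomedial striatum, mediodorsal thalamus, basolateral amygdala and lateral hypothalamus. All animals were male C57BL/6 mice labelled as 8 weeks of age, and all were injected, so no uninjected control stands beside them. The study gives this age for the injection and collected the tissue some weeks later, so the cells come from older mice. Each unsorted library came from 1 mouse and held every cell type that survived slicing, microdissection of the prelimbic and infralimbic areas, papain, protease and dispase digestion and removal of debris. Another library pooled mice 4-6 after sorting for labelled neurons. The labels call the cell type of every library retrogradely labelled vmPFC neurons, and the endothelial cells are bystanders of that design.

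Brain endothelial cells form the blood-brain barrier. Tight junctions, built around claudin 5, close the gaps between neighbouring cells, few vesicles cross the cell, carriers of the SLC families bring glucose, amino acids and hormones into the brain, and efflux pumps of the ABC family return lipophilic molecules to the blood. Wnt ligands from neural cells, read through Frizzled 4 and beta-catenin, induce and keep this state. Along the vessel tree the cells change gradually from arteries through capillaries to veins, which carry different receptors, adhesion molecules and transporters.

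The promoters of 5 of the genes that the results turn on are shown first, as the 250 bases before the transcription start that RefSeq gives for build GRCm38.p6. Cldn5 defines the cells, Eng stands for the endothelial identity genes, Mfsd2a for the carriers, and Gkn3 and Car4 for the arterial and the capillary to venous ends of the vessel tree. Capitals mark the ETS core AGGAAG (or its reverse complement CTTCCT) and the TCF/LEF core CTTTGA (or TCAAAG). These motifs do not overlap each other.
Cldn5 (chr16:18776597-18776846, plus strand): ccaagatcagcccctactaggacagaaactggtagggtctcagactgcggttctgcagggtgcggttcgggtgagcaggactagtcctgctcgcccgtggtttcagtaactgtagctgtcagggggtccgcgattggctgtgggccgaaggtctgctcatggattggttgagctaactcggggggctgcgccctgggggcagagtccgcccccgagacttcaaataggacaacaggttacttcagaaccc
Eng (chr2:32646345-32646594, plus strand): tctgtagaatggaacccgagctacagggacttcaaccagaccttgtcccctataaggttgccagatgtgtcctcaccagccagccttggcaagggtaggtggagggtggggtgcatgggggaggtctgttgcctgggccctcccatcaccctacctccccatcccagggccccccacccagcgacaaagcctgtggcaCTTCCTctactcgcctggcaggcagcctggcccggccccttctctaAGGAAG
Mfsd2a (chr4:122961189-122961438, minus strand): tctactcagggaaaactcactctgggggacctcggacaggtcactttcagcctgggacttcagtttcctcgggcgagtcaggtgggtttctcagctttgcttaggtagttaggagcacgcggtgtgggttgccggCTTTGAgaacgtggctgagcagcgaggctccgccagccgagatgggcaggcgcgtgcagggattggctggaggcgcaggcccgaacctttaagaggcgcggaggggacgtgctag
Gkn3 (chr6:87388936-87389185, minus strand): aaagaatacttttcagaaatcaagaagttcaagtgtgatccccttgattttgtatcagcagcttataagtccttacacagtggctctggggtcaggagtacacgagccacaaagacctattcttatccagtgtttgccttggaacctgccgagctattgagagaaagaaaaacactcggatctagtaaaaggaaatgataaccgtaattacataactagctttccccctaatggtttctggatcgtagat
Car4 (chr11:84957504-84957753, plus strand): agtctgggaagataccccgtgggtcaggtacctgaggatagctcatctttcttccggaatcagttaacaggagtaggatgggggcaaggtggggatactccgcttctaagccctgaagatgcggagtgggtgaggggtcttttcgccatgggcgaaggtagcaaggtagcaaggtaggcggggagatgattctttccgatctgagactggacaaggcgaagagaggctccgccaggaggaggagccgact
The Eng promoter held 2 ETS cores and the Mfsd2a promoter held 1 TCF/LEF core, and the windows of Cldn5, Gkn3 and Car4 held neither string. Of 24 identity genes, 13 had an entry in the promoter table, and 7 of these (53.8%) held the ETS core against 29.2% of the 27025 promoters in the table. Of 20 carrier genes, 14 had an entry and 6 (42.9%) held the TCF/LEF core against 14.1% of all promoters. With the motifs exchanged, 2 of the 13 identity genes (15.4%) held the TCF/LEF core and 2 of the 14 carriers (14.3%) the ETS core. None of the 10 matched genes of the Wnt list held the TCF/LEF core in this window. These are counts of letters, not of occupied sites.

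The marker UMIs separated the cells clearly. Among the cells that passed the exclusion genes, 2649 held no UMI of the 4 marker genes, 75 held 1 and 12 held 2 to 5. Only 6 cells held 6 to 9 and 66 held 10 to 19, whereas 1506 held 20 or more. Just outside the limit, 3 cells held 5 UMIs. The median member held 42 marker UMIs (range 6 to 448), made up of medians of 21 for Cldn5, 12 for Flt1, 8 for Slco1a4 and 2 for Pecam1. Only 2 members held no Cldn5 UMI and 3 no Flt1 UMI, against 24 for Slco1a4 and 269 for Pecam1. These genes chose the cells, so their levels are a description.

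**Figure D1:**
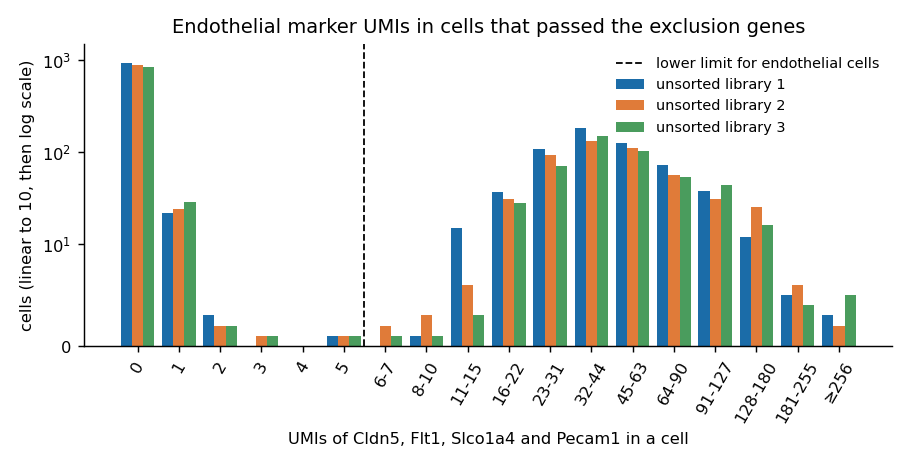
Cells that passed the exclusion genes, by the number of UMIs of Cldn5, Flt1, Slco1a4 and Pecam1 in the cell (x axis) and by unsorted library (colours), on a y axis that is linear to 10 cells and logarithmic above. Most cells lie at 0 (2649 cells) or at 20 UMIs and above (1506 cells), and the dashed line is the limit of 6 UMIs.

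Among genes the rule did not use, the label held. Levels are given as counts of UMIs per 1000000 of the cells' summed UMIs (CPM). The UMIs tag the 3′ end of single molecules, so no division by gene length is needed. Cdh5, which encodes the endothelial cadherin of adherens junctions, stood at 636, 595 and 552 in the 3 libraries. The other cells with at most 1 marker UMI held a mean of 0.680 ± 0.213 (SD, n = 3 libraries). Tie1, an endothelial receptor kinase, stood at 194, 193 and 220 against 0.116 ± 0.102 in those cells. For both genes every library of the endothelial cells lay above every library of the others.

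The median endothelial cell held 2686.5, 2858 and 2936 UMIs in libraries 1 to 3, and 1461, 1523 and 1543 genes. The sums over endothelial cells came to 1995004, 1821308 and 1926352 UMIs. The other filtered cells outside the neuron table were deeper, with medians of 4406.5 to 4655.5 UMIs. Mitochondrial UMIs took a median of 7.04% to 7.38% of an endothelial cell. Between pairs of libraries, 30, 26 and 11 cell barcodes were shared, none of them among the endothelial cells. No library stood apart. Each p-value below rests on how the difference within a library varied over these 3 libraries, with the variance estimate moderated across genes. Markers of other cells were low. Summed over each list, the 8 microglial markers came to 69.7 to 128 CPM in the endothelial cells against 31862 to 32105 in microglia-gated cells, the 6 oligodendrocyte markers to 63.2 to 97.7, the 6 astrocyte markers to 85.7 to 167, the 7 neuronal markers to 183 to 198, and the 5 red blood cell genes to 0 to 0.519, with Hba-a2, Hbb-bs, Hbb-bt and Alas2 at 0. The 5 oligodendrocyte precursor markers came to 40.6 to 159, the 6 smooth muscle markers to 105 to 121 with Cnn1 at 0, the 6 fibroblast markers to 9.52 to 38.9 with Lum and Col3a1 at 0, and the 5 border macrophage markers to 1.04 to 6.52 with Cd163 at 0. The 10 pericyte markers came to 1306 to 1814 against 32436 to 34652 in pericyte-gated cells and are taken up below.

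A further 580 cells (209, 187 and 184) held at least 6 endothelial marker UMIs together with more than 2 UMIs of an exclusion gene set. Pericyte genes were over the limit in 461 of them, neuronal genes in 96, microglial genes in 33 and oligodendrocyte genes in 21. Their median depth was 7019, 8217 and 9367 UMIs, above that of the endothelial cells in every library. No doublet caller was run, and their make-up was not tested. Under the rule they belong to the other cells, whose Cldn5 level is 288 CPM (mean of 3 libraries) with them and 1.75 ± 0.134 in cells of at most 1 marker UMI. Fold changes against all other cells therefore have a ceiling, and both values are given below for some genes and lists only.

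Endothelial cells made up 8.56% of the filtered cells of library 1 (95% Wilson interval 7.92 to 9.23), 7.90% of library 2 (7.26 to 8.59) and 7.80% of library 3 (7.15 to 8.50), a mean of 8.08% ± 0.412 (SD, n = 3). The 3 intervals overlap. Of the filtered cells outside the neuron table they made up 13.4% ± 0.738. These intervals cover counting error only, and the shares are those of a digested suspension. They depend on the gate and leave out the 580 cells with endothelial markers that failed an exclusion gene. In the library sorted for labelled neurons, 0 of 1791 filtered cells met the rule, which allows a share of up to 0.168%.

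The viral barcode transcript was rare in the endothelial cells. It was detected in 4.00%, 2.80% and 2.51% of them, a mean of 3.10% ± 0.790 (50 of 1578 cells), and no cell held 5 or more of its UMIs. Microglia-gated cells, which send no projections, gave 3.93% ± 0.488 at median depths of 4152 to 4413 UMIs, and excitatory neurons 58.8% ± 2.03 at 21362 to 23213 UMIs. With each cell thinned to 1000 UMIs, the shares became 1.32% ± 0.160 in endothelial cells, 1.00% ± 0.224 in microglia and 22.6% ± 1.56 in excitatory neurons. The level of the transcript stood at 9.69 ± 2.99 CPM in endothelial cells, 11.2 ± 0.746 in microglia and 477 ± 45.9 in excitatory neurons. No background share was measured here, from empty droplets or an uninjected animal. The paper read its barcodes from a separate targeted library and reports many zero counts in the libraries used here. It set its barcode thresholds from non-neuronal cells and from sorted cells without EGFP UMIs.

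To describe what the endothelial cells express beside the rest of the tissue, summed counts of each library were compared with those of all other filtered cells outside the neuron table, and with those of 462 pericyte-gated cells (172, 145 and 145), the mural cells that share their basement membrane. A gene was called when its Benjamini-Hochberg adjusted p in edgeR's quasi-likelihood test was under 0.05 and its fold change at least 2. Against all other cells, 2254 of 14877 genes tested were called higher, 15.2% of them, and 4578 lower, 30.8%. Together these are 45.9% of the genes. Against pericyte-gated cells, 1543 of 9605 were called higher, 16.1%, and 1269 lower, 13.2%, together 29.3%. Both contrasts are the ones the selection rests on, so the calls describe the selected cells, and nothing is read from their number. The scaling by trimmed means set the median log2 fold change of all genes at -0.14 against the other cells, where plain totals set it at -0.39. Against pericyte-gated cells it lay at 0.03. Every list is to be read beside these medians.

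The identity genes came first. All 24 genes of the identity list were higher in endothelial cells than in all other cells, with a median log2 fold change of 4.47, which became 9.13 against cells of at most 1 marker UMI. Against pericyte-gated cells 23 of 24 were higher. Esam, an adhesion molecule of the endothelial junction, was the exception at 0.93 ± 0.08 (log2 ± SE), with 828 ± 22.5 CPM in endothelial and 466 ± 56.7 in pericyte-gated cells. Emcn, a sialomucin of the luminal surface, and Eng, the TGF-beta coreceptor endoglin whose promoter is shown above, were also well represented in pericyte-gated cells, at 285 ± 20.2 and 204 ± 19.6, against 641 ± 48.6 and 746 ± 25.5. Erg, Sox17, Sox18 and Fli1, transcription factors of endothelial fate, were higher in both comparisons. Sox17 stood at 325, 346 and 306 in the 3 libraries and at 0.912 ± 1.58 in pericyte-gated cells.

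By the size of the change, the genes leading over all other cells were Ctla2a, Hmcn1, Pglyrp1, AU021092, Lmntd1, Slc19a3, Wfdc1, Ly6c1, Slc38a5, Stra6, Car5a and Itm2a. Their log2 fold changes lay between 4.76 and 5.13 against all other cells. Against cells of at most 1 marker UMI the order was another. AU021092 (11.96) and Ly6c1 (11.58) were high there too. Abcb1a (11.81) and Cyyr1 (11.35), which are not among the 12, lay above Pglyrp1 (8.64) and Itm2a (8.55). Ctla2a, which encodes a protein related to cysteine protease propeptides, stood at 1669, 1750 and 1565 CPM and rose by 5.13 ± 0.05, or by 10.17 against cells of at most 1 marker UMI. Its reads may be shared with Gm49391 and Gm49393, which overlap it on the same strand, and Ly6c1 and Ly6a have close relatives in their family. Itm2a, a membrane protein, stood at 4353, 4123 and 4237 and was found in 99.7% of the cells. Stra6 encodes the receptor that takes up retinol from its plasma carrier, and it stood at 178, 169 and 135. The genes leading downwards were Cldn11, Gpr37, Ermn and Opalin, all known from oligodendrocytes, and Igkc, an immunoglobulin constant chain. Igkc stood at 767, 2.82 and 824 CPM in the other cells of the 3 libraries, so its mean there is carried by libraries 1 and 3.

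**Figure D2:**
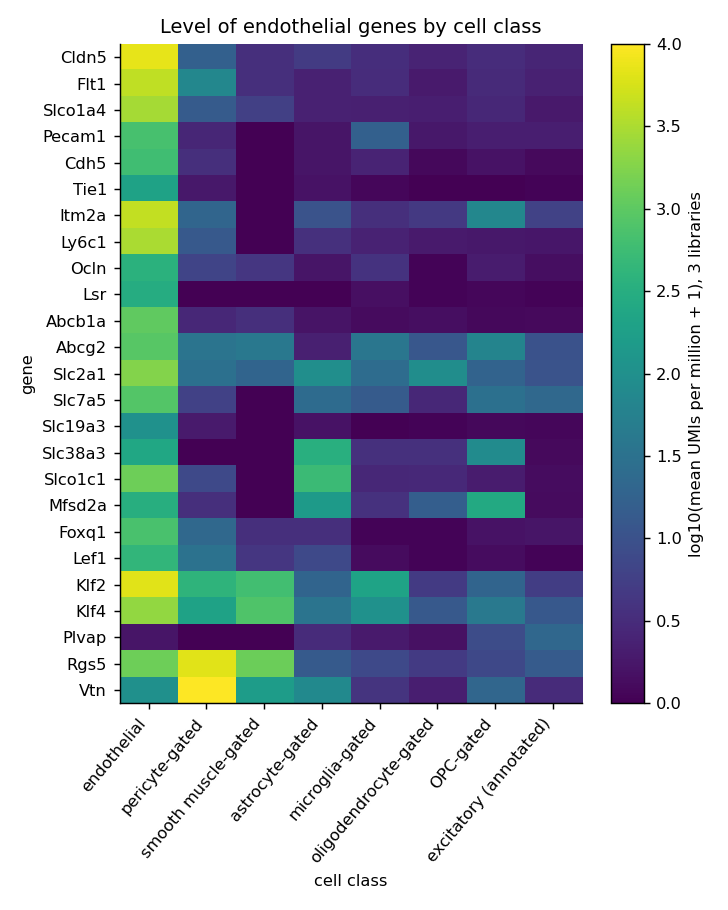
Mean level of selected genes (rows) in endothelial cells and in 7 other cell classes (columns), as log10 of CPM plus 1, averaged over 3 unsorted libraries. The junction, pump and carrier genes plotted are brightest in the endothelial column except Slc38a3, which stands at 339 CPM in astrocyte-gated and 243 CPM in endothelial cells, and Plvap is dark there (0.680 CPM), and Rgs5 is shared with pericyte-gated cells (1286 against 6685).

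Junction genes were led by Ocln and Lsr. Ocln, which encodes occludin, stood at 362, 366 and 363 CPM, almost without spread, against 5.51 ± 5.15 in pericyte-gated cells and 1.22 ± 0.212 in the other cells of at most 1 marker UMI. Lsr, the receptor that recruits proteins to contacts of 3 cells, stood at 307, 305 and 296 and had no UMI in the pericyte-gated cells, which makes it at least 115-fold higher (against a floor of 3 UMIs over the pooled pericyte-gated cells). Of the 12 junction genes, 9 were higher than in all other cells, Cgn was lower, and Cldn12 and Gja1 were not called. Cgn, the cingulin of epithelial junctions, stood at 0.690 ± 0.271. Against pericyte-gated cells 7 of 10 tested were higher and none lower. Tjp1, the scaffold ZO-1, stood at 499 ± 29.7 against 275 ± 42.2 there and was not called (0.97 ± 0.09).

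Carriers differed nearly as a whole. Of the 20 genes of the carrier list, which includes the scaffold gene Slc9a3r2, 19 were higher than in all other cells, with a median log2 fold change of 3.79 (4.81 against cells of at most 1 marker UMI), and Slc7a3 was not called. Slc2a1, the glucose transporter GLUT1, stood at 1822, 1822 and 1719 CPM against 29.6 ± 1.21 in cells of at most 1 marker UMI. Slco1c1, which carries thyroid hormone, stood at 1319, 1345 and 1251. Slc6a6, the taurine transporter, reached 2431 ± 57.9, and Slc7a5, the large neutral amino acid transporter LAT1, 839 ± 17.9. Some carriers were shared with glial cells: Slco1c1 stood at 534 ± 29.9 in astrocyte-gated cells, Slc38a3 at 339 ± 14.2 there against 243 ± 13.2 in endothelial cells, and Mfsd2a at 265 ± 15.6 in cells gated as oligodendrocyte precursors.

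Mfsd2a, which imports the lipid form of docosahexaenoic acid and whose promoter is shown above, stood at 332, 317 and 327, with 38.7 ± 3.08 in cells of at most 1 marker UMI and 2.52 ± 2.36 in pericyte-gated cells. Slc19a3, a thiamine carrier, stood at 91.7, 116 and 102. Against pericyte-gated cells 18 of 19 tested carriers were higher. Slc38a3, a glutamine carrier, had no UMI there and was at least 92.4-fold higher. Slc22a8, the organic anion transporter OAT3, was the carrier that was not called, because pericyte-gated cells held it at 369 ± 23.1 against 500 ± 4.95 (0.54 ± 0.08).

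The efflux pumps split. Abcb1a, one of the P-glycoprotein genes of the mouse, stood at 1049, 1076 and 1004 CPM, was found in 92.3% of the cells and was at 0.336 ± 0.115 in cells of at most 1 marker UMI. Abcg2, the breast cancer resistance protein, stood at 924 ± 42.1 and Abcc4 at 156 ± 6.49, and all 3 were higher in both comparisons. The sister gene Abcb1b stood at 1.56 ± 0.489 and was lower than in all other cells, as were Abcc1 and Abcc5. Abcc1 lost its call without library 2, at a log2 fold change of -0.97. Thus 3 of 6 pumps were higher and 3 lower.

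Genes of vesicles and uptake receptors followed. Plvap, the protein of fenestral diaphragms, is a marker of leaky vessels and had 1.00, 0 and 1.04 CPM. Cav1, Cav2, Cavin1, Cavin2 and Cavin3, which build caveolae, were all higher than in other cells, with Cav1 at 329, 304 and 341. Of the 12 genes of this list, 9 were higher, and Plvap and Lrp1 were lower. Tfrc, the transferrin receptor that brings iron into the brain, stood at 433, 439 and 446. Lrp1, a clearance receptor, stood at 27.9 ± 12.9 against 372 ± 38.3 in pericyte-gated cells and was lower than in both comparison groups.

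All 16 genes of the Wnt/beta-catenin list were higher than in all other cells, with a median log2 fold change of 3.52 (5.03 against cells of at most 1 marker UMI). Foxq1, a transcription factor gene of brain endothelium, stood at 726, 689 and 697 CPM against 0.768 ± 0.233, and Lef1, the nuclear partner of beta-catenin, at 427, 432 and 444 against 1.09 ± 0.215. The receptor gene Fzd4 stood at 178 ± 11.3 and the coreceptor gene Reck at 94.8 ± 2.94. Apcdd1, a feedback inhibitor, was also higher (4.56 ± 0.28) at only 16.5 ± 1.61. Against pericyte-gated cells 9 of 16 were higher and none lower, with a median of 1.34. The 7 that were not called were Fzd6, Lrp5, Tspan12, Adgra2, Axin2, Tnfrsf19 and Foxf2, and Foxf2 stood at 199 ± 12.5 against 153 ± 38.5 there.

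In the VEGF, Notch, apelin and TGF-beta list, 16 of 20 tested genes were higher than in all other cells. Apln and Pgf, ligands of vessel growth, were lower, at 1.36 ± 1.43 and 1.04 ± 0.505 CPM, and Nrp2 and Smad7 were not called. Id1 and Id3, targets of BMP signalling, stood at 1544 ± 88.9 and 1372 ± 25.7, and their receptor gene Acvrl1 at 446 ± 39.9. Pdgfb, the ligand that holds pericytes to the vessel, stood at 406, 408 and 386 against 8.42 ± 4.88 in pericyte-gated cells. Its receptor gene Pdgfrb had the reverse distribution, at 18.8 ± 3.35 against 1542 ± 112. Against pericyte-gated cells 14 of 18 were higher, Pgf was lower, and Notch1, Jag1 and Hes1 were not called.

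Basement membrane genes were high in both vascular classes. Of 12 genes, 10 were higher than in all other cells, Lamb1 was lower and Lamc1 was not called, and only Lama5 was higher than in pericyte-gated cells, and Lama4, Lamb1, Lamc1 and Nid1 were lower. The list's median against pericyte-gated cells was -0.31. Col4a1, a chain of collagen IV, stood at 330, 335 and 317 against 545 ± 30.8 there. Nid1, which links laminin to collagen IV, stood at 55.0 ± 2.48 against 378 ± 55.1, and Lamb1 at 1.71 ± 1.12 against 68.2 ± 8.23.

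Genes of vessel tone and flow were led by Klf2 and Klf4, factors that shear stress induces. Klf2 stood at 6731, 6774 and 6479 CPM and was found in 99.4% of the cells, and Klf4 stood at 2250, 2290 and 2157. Nos3, the endothelial nitric oxide synthase, stood at 229, 249 and 252 against 3.08 ± 0.637 in cells of at most 1 marker UMI, and Edn1, the precursor of endothelin 1, at 258, 224 and 251. Of 14 genes, 12 were higher than in all other cells and Ednrb and Ptgs1 were lower. Against pericyte-gated cells 9 of 11 were higher, while Ece1 and Ednrb were not called.

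Leukocyte adhesion genes were low. Sele and Selp, the selectins of activated endothelium, had no UMI in any endothelial library. Vcam1 stood at 27.1, 52.2 and 56.1 and was found in 3.89% of the cells, and Icam1 stood at 56.1, 53.3 and 70.6 in 8.84% of them. Neither was called against all other cells, and Selplg, Cd9 and Ackr1 were lower. Against pericyte-gated cells Vcam1, Icam1 and Cd9 were higher, with Vcam1 at 0 there and so at least 17.0-fold higher. The call of Cd9 was lost without library 2 (0.85).

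All 14 genes of the interferon and MHC class I list were higher than in all other cells, with a median log2 fold change of 2.73. Summed, they stood at 6933, 6757 and 7151 CPM in endothelial cells, 4308 to 4415 in microglia-gated cells and 2359 to 2702 in pericyte-gated cells. Ifit1, an interferon-induced RNA-binding protein, stood at 216, 191 and 175 against 3.43 ± 1.09 in pericyte-gated cells. Irf7, a regulator of interferon genes, stood at 100.2, 93.3 and 98.6 against 4.47 ± 3.25. Against pericyte-gated cells 11 of 14 were higher, and Ifitm2, Ifitm3 and Ifi27 were not called. B2m fell under the fold limit with plain totals (0.97 against all other cells). H2-K1 and H2-D1 are near copies of each other, and reads may be split between them.

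Immediate-early genes, which dissociation is known to induce, were abundant in several classes. Summed over the list they stood at 16965 to 17486 CPM in endothelial, 12881 to 16231 in pericyte-gated, 17468 to 19240 in smooth muscle-gated and 21617 to 22822 in microglia-gated cells. Of 12, 7 were higher than in all other cells. Fos stood at 2937, 2909 and 2883 CPM against 886 ± 6.26 in cells of at most 1 marker UMI, yet at 3544 ± 446 in pericyte-gated cells. Against pericyte-gated cells 3 (Atf3, Zfp36 and Dusp1) were higher, Egr1 was lower at -1.13 ± 0.09 and the other 8 were not called. Egr1 lost its call without library 1 (-0.97). The part of the digestion in these levels was not tested. Hspa1a and Hspa1b are near copies whose reads cannot be told apart with certainty.

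**Figure D3:**
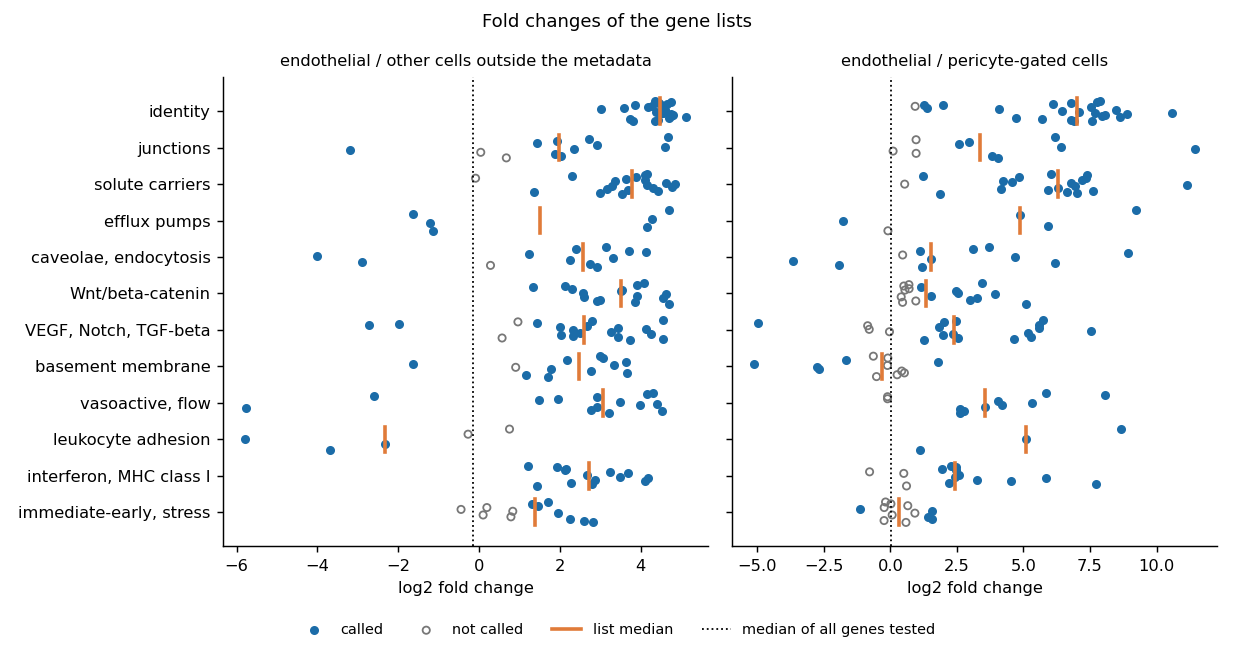
Log2 fold change of each tested list member (points, filled when called) in endothelial cells against all other filtered cells outside the neuron table (left) and against pericyte-gated cells (right), with list medians as bars and the median of all genes as a dotted line. Identity genes, carriers and Wnt genes lie to the right in the left panel (medians 4.47, 3.79 and 3.52), and basement membrane genes centre near 0 in the right panel (median -0.31). Genes with no UMI in pericyte-gated cells, such as Lsr, are drawn at their fitted value.

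The genes leading over pericyte-gated cells were Cyyr1, Lsr, Slc38a3, Gata2, Paqr5, AU021092, Srarp and Tmem252, genes without any UMI in 462 pericyte-gated cells. Cyyr1, a cysteine and tyrosine-rich membrane protein, stood at 538, 485 and 475 CPM and was at least 190-fold higher. Gata2, a transcription factor gene of endothelium and blood, stood at 214, 216 and 212 and was at least 81.4-fold higher. Paqr5, AU021092, Srarp and Tmem252 had bounds of 78.7, 78.5, 77.9 and 70.9-fold. In the other direction stood Rem1, Carmn, Ggt5, Adap2os and Nodal, with log2 fold changes of -8.05 to -7.27. Nodal, a ligand of the TGF-beta family, stood at 220 ± 9.99 in pericyte-gated and 1.24 ± 0.863 in endothelial cells. Adap2os lies opposite Adap2, from which its reads could not be told apart with certainty. Of the identity list, 2 genes (Erg and Robo4) had no UMI in pericyte-gated cells, and the list's median was 6.79 with both at their bound.

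All 7 pericyte markers that could be tested were lower than in pericyte-gated cells. Measured as a percent of the level in pericyte-gated cells, the 10 pericyte markers had a median of 1.78% in endothelial cells (range 0.462% to 19.2%). Vtn, the most abundant of them, stood at 0.609%, Pdgfrb at 1.22% and Atp13a5 at 1.15%. Rgs5, a regulator of G-protein signalling, was the one at 19.2%, at 1540, 1255 and 1064 CPM, and was found in 52.5% of the endothelial cells, while Vtn was found in 12.2%. These genes were not in 1 ratio to their levels in pericyte-gated cells, and the cause was not tested. Kcnj8, Abcc9 and Higd1b are capped by the rule.

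Variation from artery to vein was described with 2 small gates. Endothelial cells with at least 2 UMIs of Bmx, Gkn3, Sema3g, Efnb2, Hey1 and Vegfc and none of Slc38a5, Nr2f2, Vcam1 and Lcn2 were taken as arterial-gated, and the reverse as venous-gated. This gave 85, 72 and 60 arterial-gated cells, 98, 81 and 89 venous-gated cells, and 417, 347 and 329 that met neither. Gkn3 gave 34.5% of the gate UMIs of the arterial-gated cells and Slc38a5, a glutamine carrier, 68.4% of those of the venous-gated cells, so the venous gate mostly reads Slc38a5. Median depth was 3877, 3339 and 3225 UMIs in arterial-gated and 3119, 4581 and 4839 in venous-gated cells. The venous-gated cells were deeper in libraries 2 and 3 and shallower in library 1. Ungated cells were shallower than both, at 2467, 2604 and 2648, and their number depends on depth. The gate genes were kept out of the test.

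Of 5947 genes tested, 255 differed between the arms, 4.29%, with 158 higher in arterial-gated cells (2.66%) and 97 lower (1.63%). DESeq2 called 136. The median log2 fold change of all genes lay at -0.00175. Libraries of the arms also did not overlap for genes with small changes that were not called, such as Bmpr2 (0.16) and Abcb1a (-0.20). Where a lack of overlap is given below, it is a description only.

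Of 15 arterial genes outside the gate, 12 could be tested and 10 were higher in arterial-gated cells. Against pericyte-gated cells, 7 of 13 tested genes of this list were higher in endothelial cells, and Gja4, Mgp and Crip1 were lower. The part of pericyte transcripts in the arterial-gated levels of Gja4, Mgp and Crip1 was not tested. Mgp, the matrix Gla protein that inhibits calcification, stood at 163, 138 and 345 CPM against 2.52, 8.78 and 20.4 in venous-gated cells (log2 fold change 4.30 ± 0.27, adjusted p = 4e-18 by edgeR's quasi-likelihood test). Library 3 was the highest in both arms, and the arms did not overlap. Alpl, the tissue-nonspecific alkaline phosphatase, stood at 310, 358 and 388 against 27.7, 13.2 and 20.4 (4.15 ± 0.21). Unc5b, a netrin receptor of arterial endothelium, stood at 230, 203 and 218 against 15.1, 15.4 and 5.57 (4.21 ± 0.27). Stmn2, better known from neurons, stood at 214, 199 and 269 against 30.2, 8.78 and 9.28 (3.91 ± 0.26).

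Dll4, the Notch ligand of arterial and tip cells, was higher at 1.82 ± 0.18, and so were Tm4sf1 (2.31 ± 0.08), Glul (2.02 ± 0.09), Cxcl12 (1.36 ± 0.08), Crip1 (1.20 ± 0.13) and Edn1 (1.16 ± 0.13). Edn1 fell under the fold limit without library 1 (0.94). Jag1, another Notch ligand, stood at 69.5, 101 and 55.5 in arterial-gated and 85.6, 79.0 and 65.0 in venous-gated cells, which overlap. Clu missed the call at 1.24 ± 0.44. Gja4, a connexin of arteries, was below the count filter and stood at 34.7, 25.3 and 63.4 against 2.52, 4.39 and 1.86. Gja5 and Fbln5 had no UMI in either arm.

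Of 12 venous genes outside the gate, 8 could be tested and 7 were lower in arterial-gated cells, that is, higher in venous-gated ones. Il1r1, the interleukin 1 receptor, stood at 55.4, 59.2 and 61.3 in venous-gated cells and at 0, 0 and 3.96 in arterial-gated cells (-5.32 ± 0.66, adjusted p = 1e-08 by edgeR's quasi-likelihood test). Flrt2, an adhesion protein that binds netrin receptors, stood at 133, 160 and 176 against 8.02, 7.24 and 0 (-4.69 ± 0.37). Tmsb10, an actin-binding peptide, stood at 1377, 1454 and 1500 against 190, 167 and 99.1 (-3.17 ± 0.12). None of these overlapped between the arms.

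Vwf, the carrier of clotting factor VIII, differed less, at 257, 360 and 357 against 126, 170 and 131 (-1.15 ± 0.14), as did Icam1 (-1.47 ± 0.25) and Ctsc (-2.21 ± 0.24). Ephb4, the venous receptor of Efnb2, was not called (-0.48 ± 0.27), with 65.4, 70.2 and 50.1 against 53.4, 39.8 and 35.7. Some other genes of the venous lists were nearly absent. Selp had no UMI, Ackr1 had none in either arm, and Lcn2, although in the gate, stood at 0, 0 and 7.43 in venous-gated cells.

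Of 12 capillary genes, none was higher in arterial-gated cells and 4 were lower. Car4, a carbonic anhydrase of the capillary surface whose promoter is shown above, stood at 171, 105 and 91.1 in arterial-gated cells, 788 ± 25.8 in ungated cells and 1321, 1084 and 1155 in venous-gated cells (-3.21 ± 0.12). Slc16a1, the lactate and ketone carrier MCT1, stood at 286, 272 and 214 against 1077, 1044 and 904 (-1.94 ± 0.10), Tfrc at 193 ± 20.4 against 572 ± 34.7 (-1.53 ± 0.12) and Slc22a8 at 277 ± 45.2 against 672 ± 9.07 (-1.24 ± 0.11). Mfsd2a went the other way without reaching the fold limit, at 398, 366 and 376 against 262, 259 and 297 (0.51 ± 0.12). Spock2, a proteoglycan gene, stood at 2946 ± 431 and 2813 ± 154 and was not called (0.09 ± 0.06).

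**Figure D4:**
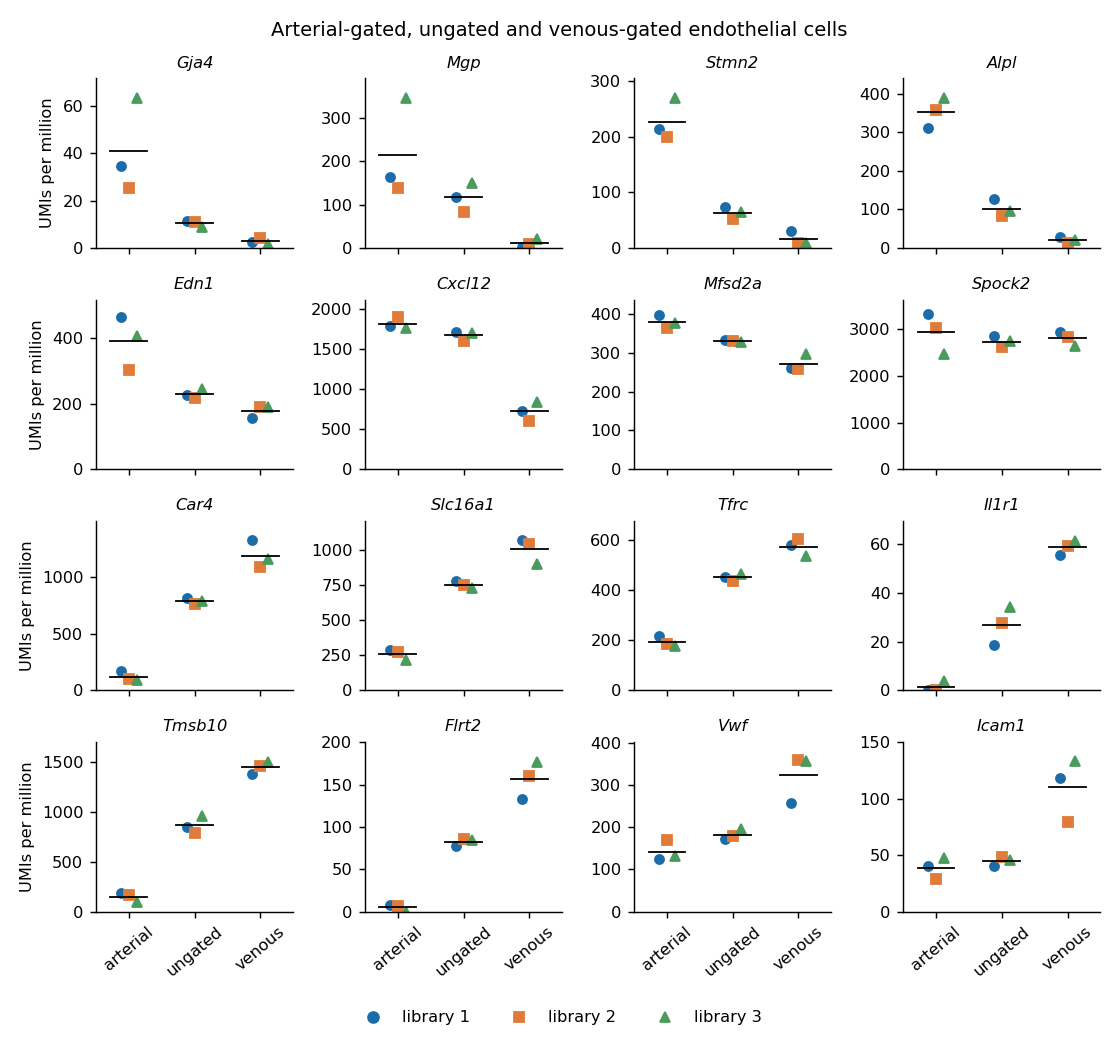
Levels of 16 genes outside the gates in arterial-gated, ungated and venous-gated endothelial cells, in CPM (y axis from 0), with 1 symbol per unsorted library and a bar at the mean. Arterial genes such as Alpl fall and venous and capillary genes such as Flrt2, Car4 and Slc16a1 climb across the 3 groups, whereas Spock2 stays between 2477 and 3323 in both arms.

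The barrier lists are to be read beside the 4.29% of all genes tested that were called between the arms. Of 23 tested identity genes, Mmrn2 was higher (1.12 ± 0.16) and Ctla2a lower (-1.19 ± 0.08) in arterial-gated cells and 21 were not called. The call of Mmrn2 was lost without library 3 (0.81). None of 15 Wnt genes, 14 interferon and MHC class I genes and 4 efflux pumps reached the call, counts that are about as low as the share over all genes gives for lists of this size. Within the interferon and MHC class I list, with a median log2 fold change of 0.32, Irf7 stood at 149.6, 116 and 158 CPM in arterial-gated against 88.1, 74.6 and 83.6 in venous-gated cells (0.81 ± 0.19, adjusted p = 0.0015 by edgeR's quasi-likelihood test). Ifitm3 (0.57 ± 0.07) and H2-D1 (0.51 ± 0.08) also had no overlap between the arms, and all 3 lay under the fold limit. Of 9 junction genes only Gja1, the connexin 43 gene, was called, and it was higher in arterial-gated cells, at 112, 152 and 135 against 50.3, 57.0 and 27.9 (1.60 ± 0.23). Of 18 carriers, 5 were lower in arterial-gated cells (Slc16a1, Slc22a8, Slc38a3, Slc39a8 and Slc40a1) and none higher. Slc40a1, the iron exporter ferroportin, was close to the limit (-1.02 ± 0.11) and fell under it without library 1 (-0.96). Slc2a1 stood at 2279 ± 116 against 1604 ± 84.6 (0.54 ± 0.06).

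Other lists gave a few genes each. Smad6, an inhibitor of BMP signalling, was higher in arterial-gated cells (1.17 ± 0.31), a call that DESeq2 did not make and that was lost without library 1 (0.87) and without library 3 (0.91). Nrp2, a VEGF and semaphorin coreceptor of veins and lymphatics, was lower (-2.48 ± 0.36), and so was Nid1 (-1.98 ± 0.34). Of 12 immediate-early genes, Egr1 (1.38 ± 0.09), Atf3 (1.16 ± 0.09) and Fosb (1.06 ± 0.09) were higher in arterial-gated cells. Fosb fell under the limit without library 1 (0.99). Fos stood at 4186, 3939 and 4521 against 2250, 2251 and 2518, without overlap, and missed the fold limit at 0.88 ± 0.06. Klf2 and Klf4 were not called, at 0.24 ± 0.05 and 0.48 ± 0.06.

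Markers of other cells between the arms were as follows. The summed smooth muscle markers ranged from 76.0 to 214 CPM in arterial-gated and from 37.1 to 75.5 in venous-gated cells, where Acta2, Myh11, Tagln and Cnn1 were at 0. The summed pericyte markers ranged from 1533 to 2215 and from 1088 to 1593, and the summed oligodendrocyte markers from 50.8 to 254 and from 50.3 to 96.5. The summed oligodendrocyte precursor markers ranged from 7.93 to 128 in arterial-gated and from 2.52 to 318 in venous-gated cells, the microglial ones from 71.3 to 94.1 and from 48.3 to 133, the astrocyte ones from 79.7 to 123 and from 57.0 to 242, and the neuronal ones from 163 to 230 and from 160.1 to 173. Mbp was called higher in arterial-gated cells (1.05 ± 0.33) at 10.7, 57.9 and 119, and without library 3 it stood at 0.19. The part of these cells in the differences was not tested.

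By size, the 10 genes leading in arterial-gated cells were Alox12, Fbln2, Slc26a10, Lrrc32, Gm9946, Mgp, Unc5b, Alpl, Lypd1 and Stmn2. Alox12, a lipoxygenase, stood at 37.4, 54.3 and 67.4 CPM against 0, 2.19 and 1.86 (4.99 ± 0.64), and Fbln2, an elastic fibre protein, at 58.8, 54.3 and 43.6 against 2.52, 0 and 1.86 (4.90 ± 0.64). Lrrc32, which presents latent TGF-beta, stood at 90.8, 94.1 and 107 against 0, 6.58 and 3.71 (4.69 ± 0.43). The genes leading in venous-gated cells included Il1r1, Flrt2, Wnt5a, Fam13a, Rnase4, Car4, Tmsb10 and Ndnf. Wnt5a, a ligand of noncanonical Wnt signalling, stood at 93.1, 116 and 111 against 5.34, 0 and 7.93 (-4.45 ± 0.42). Rnase4 shares its strand and locus with Ang.

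The ungated cells hold the endothelial cells that met neither gate. Over all 5947 genes tested, 3092 had a mean level in ungated cells that lay between those of the arms, 1189 nearer to the arterial and 1903 nearer to the venous side. Of the 158 genes called higher in arterial-gated cells, 152 lay between, 21 nearer to the arterial and 131 nearer to the venous side. Of the 97 called lower, 94 lay between, 32 nearer to the arterial and 62 nearer to the venous side. Cxcl12 was nearer to the arterial side, at 1811 ± 68.9, 1666 ± 61.4 and 722 ± 115 in arterial-gated, ungated and venous-gated cells, whereas Alpl was nearer to the venous side, at 352 ± 39.6, 102 ± 22.0 and 20.4 ± 7.26. Il1r1 stood at 1.32 ± 2.29, 26.9 ± 7.79 and 58.6 ± 3.00.

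**Figure D5:**
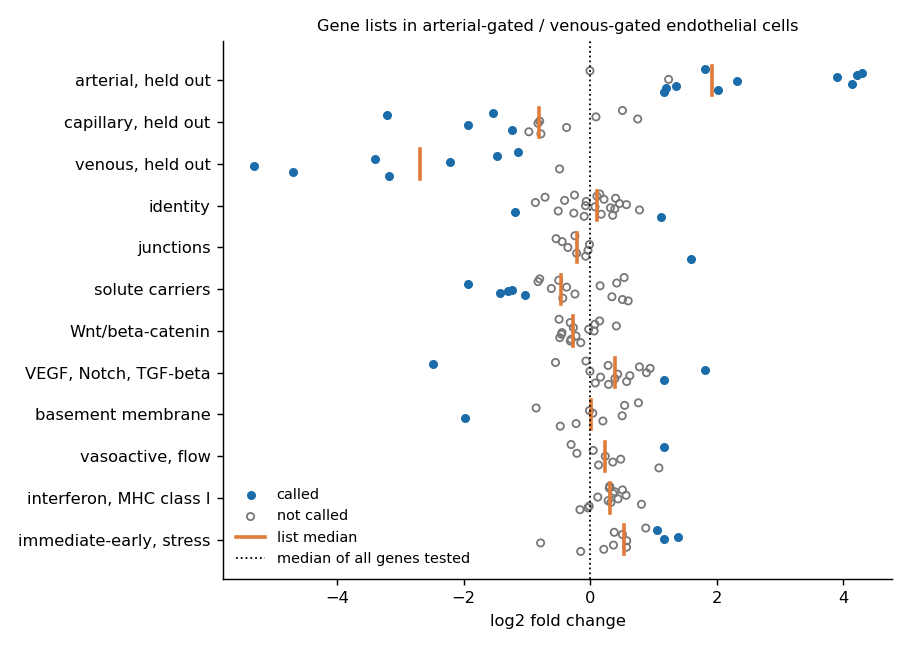
Log2 fold change of each tested list member (points, filled when called) in arterial-gated against venous-gated endothelial cells, with list medians as bars. The held-out arterial list has a median of 1.92, the held-out venous list of -2.69 and the capillary list of -0.81, and the Wnt and interferon lists have no called gene where 4.29% of all genes tested were called.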

How the data were processed

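The authors deposited raw UMI counts per gene and cell (Cell Ranger 3.0.2, genome build mm10) of 3 unsorted libraries and 1 sorted library, made by 10x Genomics 3′ sequencing, with a metadata table of annotated excitatory neurons. The labels also name Seurat 3.1.4. From the deposited counts, cells were selected by the rule above, and UMIs were summed per library and cell group. The viral barcode feature was left out of the summed UMIs and of the tests. It was counted in the depth, gene number and filters of single cells. The 14 gate genes were left out of tests (the arterial and venous gate genes too, between the arms). Sums were compared with edgeR 4.0.16 (TMM scaling, filterByExpr, quasi-likelihood test, library as a block, since both groups of a comparison come from the same mouse). DESeq2 1.42.0 was an alternative. The pipeline was tested on simulated data. SE is the absolute log2 fold change over the square root of F. Comparison classes were gated at 3 or more UMIs of their markers (smooth muscle 6), and pericyte-gated cells held at most 2 endothelial marker UMIs. Named genes were the 12 highest and 5 lowest over all other cells (at least 100 CPM), 8 and 5 over pericyte-gated cells, and 10 and 10 between arms (at least 50), called and alike in 3 of 3 libraries, besides members of 29 lists. Members and lists were chosen with earlier results of these data known. Gene positions came from GENCODE M21 (GRCm38), which held all 302 IDs looked up. No doublet caller was run, and no deposited column of comparisons was used. Floors are 3 counts over a pooled group, and intervals and floors cover counting error only. A few genes of the lists are not reported here.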

Additional observations from a re-analysis of the deposited data

How the results depend on the processing

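The share of endothelial cells was 7.59% when at least 1000 genes were asked of each cell, and 7.85% to 8.23% with 1 library left out. The share of cells with the viral transcript was 1.32% after thinning to 1000 UMIs and 2.66% to 3.4% with 1 library left out. Between the arms DESeq2 called 136 genes instead of 255, no filter on low counts gave 347, and leaving out 1 library gave 242 to 279. Leaving out 1 library gave 6598 to 6700 calls against all other cells and 2703 to 2850 against pericyte-gated cells, of 6832 and 2812. Since both groups of a comparison come from the same 3 mice, the replicate block was part of the design, and without the replicate block the calls numbered 6906, 2826 and 264. A few list genes turned direction. Against all other cells, Notch3 stood at 0.11 when the comparison cells held at most 1 marker UMI, and Tagln and Myh11 at 0.26 and 0.38 with a mitochondrial limit of 10%. With 1 library left out, Ednrb ranged from -0.95 to 2.89 against pericyte-gated cells (2.89 without library 1), and Pdgfra from -0.94 to 2.25 between the arms (2.25 without library 3). Both also turned with DESeq2, to 1.55 and 1.32, and Ednrb with a pericyte gate of 6 UMIs, to 0.66, without being called there. The cause was not tested. Smooth muscle-gated cells, which carry Tagln and Myh11, had a median mitochondrial share of 13.2% to 15.5%. Of all checks of single genes under an alternative, 2509 against all other cells, 2197 against pericyte-gated cells and 1759 between the arms kept direction and side of the threshold. A further 10, 34 and 41 turned sign in genes that were not called, and 40, 35 and 39 crossed the threshold or turned a called value. The arms rest on 60 to 98 cells a library, so genes of low level are imprecise there.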

Other observations

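Arterial and venous gate transcripts were also counted within single cells. Among endothelial cells with at least 1 UMI of an arterial gate gene, 25.9%, 26.1% and 32.1% held a UMI of a venous gate gene in the 3 libraries, against 47.2%, 45.7% and 50.6% of those without an arterial UMI. In 3 of 3 libraries the first share was the lower. Of 1578 cells, 366 held arterial gate UMIs alone, 511 venous gate UMIs alone, 142 both and 559 neither, and 22 held at least 2 UMIs of both sets. The difference was not tested beyond these ranges, and cells without a gate UMI are shallower.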
